A study of Mus musculus with 6 samples.

Results

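The genes described here belong to the fetal and neonatal blood programme: the chromatin proteins Hmga1 and Hmga2, the RNA-binding proteins Lin28a, Lin28b, Igf2bp1, Igf2bp2 and Igf2bp3, and the transcription factor Arid3a. They were chosen by name, 8 of the 23337 genes in the table, and all 8 were found. Polyadenylated RNA was sequenced from a mouse leukemia that the labels call primary and neonatal; the title of the series places it among MLL-rearranged leukemias. The study compared 3 libraries treated with ccl5, a chemokine, with 3 libraries kept under control conditions. By the labels ccl5 replicates 2 and 3 and control replicate 3 came from a primary transplant and ccl5 replicate 1 from a tertiary transplant, while control replicates 1 and 2 carry no transplant label. The labels used here name no strain, no MLL partner gene, no age of the hosts, no dose and no duration of treatment.

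LIN28 proteins bind the precursors of the let-7 microRNAs and block their maturation. Mature let-7 pairs with sites in the 3' untranslated regions (UTRs) of messenger RNAs and lowers their stability and translation, and Hmga2, Lin28a, Lin28b and the Igf2bp genes are among its long-known targets. In mouse blood formation the programme is known for high Lin28b and Hmga2 and low let-7 in fetal stem cells, and for its decline in the young animal. Arid3a is known in the mouse as a let-7 target that favours fetal B-cell development. HMGA proteins bend AT-rich DNA through their AT-hooks, and IGF2BP proteins bind messenger RNAs and affect their stability, transport and translation.

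The let-7 family is shown first because its seed, bases 2 to 8, defines the sites looked for in these genes. Capitals mark the seed in 4 mature forms, 5′ to 3′ (RefSeq, GRCm38.p6):
mmu-let-7a-5p: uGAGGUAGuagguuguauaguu
mmu-let-7b-5p: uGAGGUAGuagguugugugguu
mmu-let-7c-5p: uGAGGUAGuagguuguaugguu
mmu-let-7d-5p: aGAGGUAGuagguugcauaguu
All 9 mature forms of the family in the RefSeq table, miR-98 included, share this seed. They differ outside it, as the b, c and d forms show beside the a form.

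The sequence that pairs with the seed, CTACCTC, was counted on the sense strand of the longest annotated 3' UTR of each gene (GENCODE M21, GRCm38). Each of the 8 genes had at least 1 match, against 9.1% of 20498 protein-coding genes. Hmga2, Lin28b and Igf2bp1 had 4 matches each, and 12 of the 20498 genes had 4 or more. Lin28a and Arid3a had 2, and Hmga1, Igf2bp2 and Igf2bp3 had 1. The 3' UTRs of the 8 genes were longer (median 2894 bases) than those of all genes (median 954 bases), and several of the 8 are known from the literature as let-7 targets, so the count describes the genes and is no test. Shown are all matches of Hmga2, Lin28a, Igf2bp2 and Igf2bp3, and the first match of Igf2bp1 and of Arid3a. Left out are the Hmga1 match, the second Arid3a match, the other Igf2bp1 matches and those of Lin28b. The shown matches are given with the 14 bases before them and the base after them, read on the sense strand, with the match in capitals:
Hmga2 match 1, chr10:120364224-120364245, minus strand: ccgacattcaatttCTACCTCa
Hmga2 match 2, chr10:120362987-120363008, minus strand: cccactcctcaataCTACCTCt
Hmga2 match 3, chr10:120362549-120362570, minus strand: tgatttgcaaggaaCTACCTCc
Hmga2 match 4, chr10:120361691-120361712, minus strand: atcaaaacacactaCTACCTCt
Lin28a match 1, chr4:134005189-134005210, minus strand: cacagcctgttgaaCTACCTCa
Lin28a match 2, chr4:134004551-134004572, minus strand: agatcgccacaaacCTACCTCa
Igf2bp1 match 1, chr11:95961778-95961799, minus strand: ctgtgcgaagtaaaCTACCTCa
Igf2bp2 match, chr16:22059473-22059494, minus strand: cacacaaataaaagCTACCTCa
Igf2bp3 match, chr6:49086787-49086808, minus strand: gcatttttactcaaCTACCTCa
Arid3a match 1, chr10:79953896-79953917, plus strand: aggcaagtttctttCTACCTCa
Hmga2 match 1 began 58 bases after the stop codon and match 4 began 2591 bases after it. An A follows both Lin28a matches and 1 of the 4 Hmga2 matches. Shown or not, it follows 3 of the 4 Igf2bp1 matches, 1 of the 4 Lin28b matches and 1 of the 2 Arid3a matches. It follows the single matches of Igf2bp2 and Igf2bp3 but not that of Hmga1. Such an A lies opposite the first base of the microRNA and is a known feature of effective sites.

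**Figure D1:**
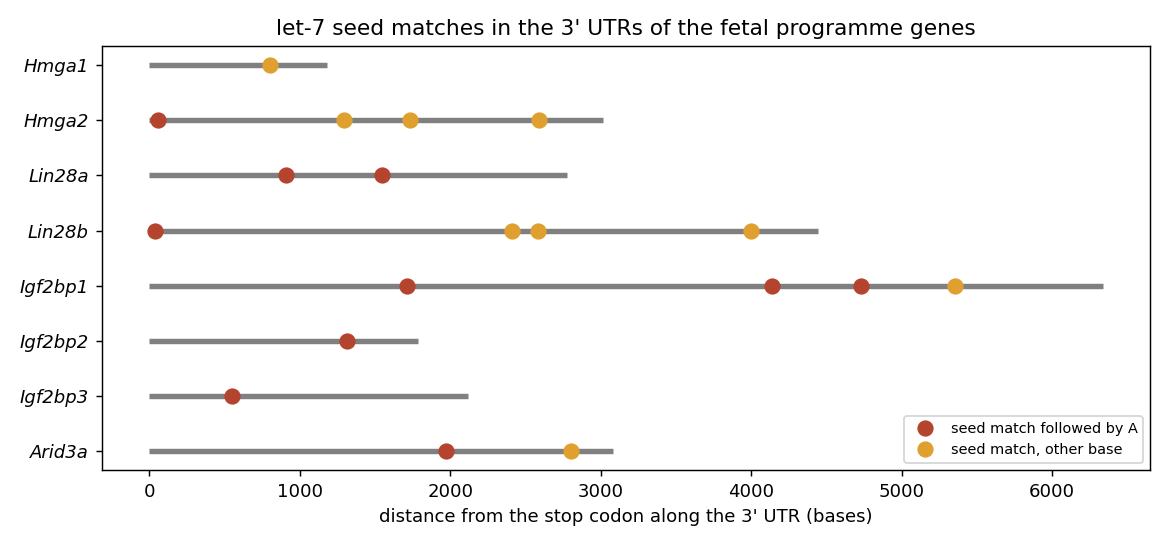
Positions of let-7 seed matches along the longest annotated 3' UTR of each gene, in bases from the stop codon; each grey line is 1 UTR and each point 1 match, red where an A follows and yellow where another base does. Hmga2, Lin28b and Igf2bp1 carry 4 matches each and the other genes 1 or 2.

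Gene counts summed to between 13421100 and 18445095 per library. The 6 libraries fell into 3 close couples, ccl5 replicates 1 and 3 (Pearson r of log2 CPM 0.993), control replicates 1 and 2 (0.995), and ccl5 replicate 2 with control replicate 3 (0.995), while all other couples lay between 0.826 and 0.887. The last couple joins a treated with a control library. The labels were taken as given; whether a label of that couple is exchanged cannot be told from these values, and every ccl5 over control value below rests on them. Counts differed within the couples by more than sampling noise (chi-square per degree of freedom 3.55 to 7.27), so no library is a plain repeat of another's counts, but 2 preparations of 1 RNA sample could differ as much. Each library was counted as 1 sample, as labelled. The leukocyte genes Ptprc, Itgam and Fcgr3 reached at least 398 CPM in every library, while the myeloid genes Mpo (1.64 to 232 CPM) and Csf1r (77.6 to 406 CPM) varied widely. Pax5, Ebf1 and Cd3e had at most 2 counts in any library, but the B-cell gene Cd79b had 139 to 299 counts and the T-cell gene Lck 5 to 44. Whether the libraries of a group stem from different animals is not stated in the labels, and the p-values cover only the spread between these libraries. Values are CPM, a gene's share of the reads of its library after TMM scaling, and 3 counts in a library correspond to 0.16 to 0.273 CPM.

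None of the 6 genes that could be tested passed edgeR's test of ccl5 against control, DESeq2 called Hmga2, and the groups overlapped in all 6. The 3 genes with a wide range, Hmga2, Lin28a and Igf2bp2, followed the 3 couples of libraries, in 3 layouts. Hmga2 was highest in control replicates 1 and 2, Lin28a was low in ccl5 replicates 1 and 3 alone, and Igf2bp2 was high in those same libraries. Hmga1, in a smaller range, and the untested Igf2bp1, at no more than 13 counts in any library, were also highest in control replicates 1 and 2. Igf2bp3 and Arid3a were abundant in all 6 libraries and varied by less than 2-fold. Lin28b had 0 counts in every library, which allows up to 0.273 CPM at the shallowest effective depth (3 counts, counting error only). The RNA came from bulk samples, in which fewer cells of a type and less RNA per cell cannot be told apart.

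**Figure D2:**
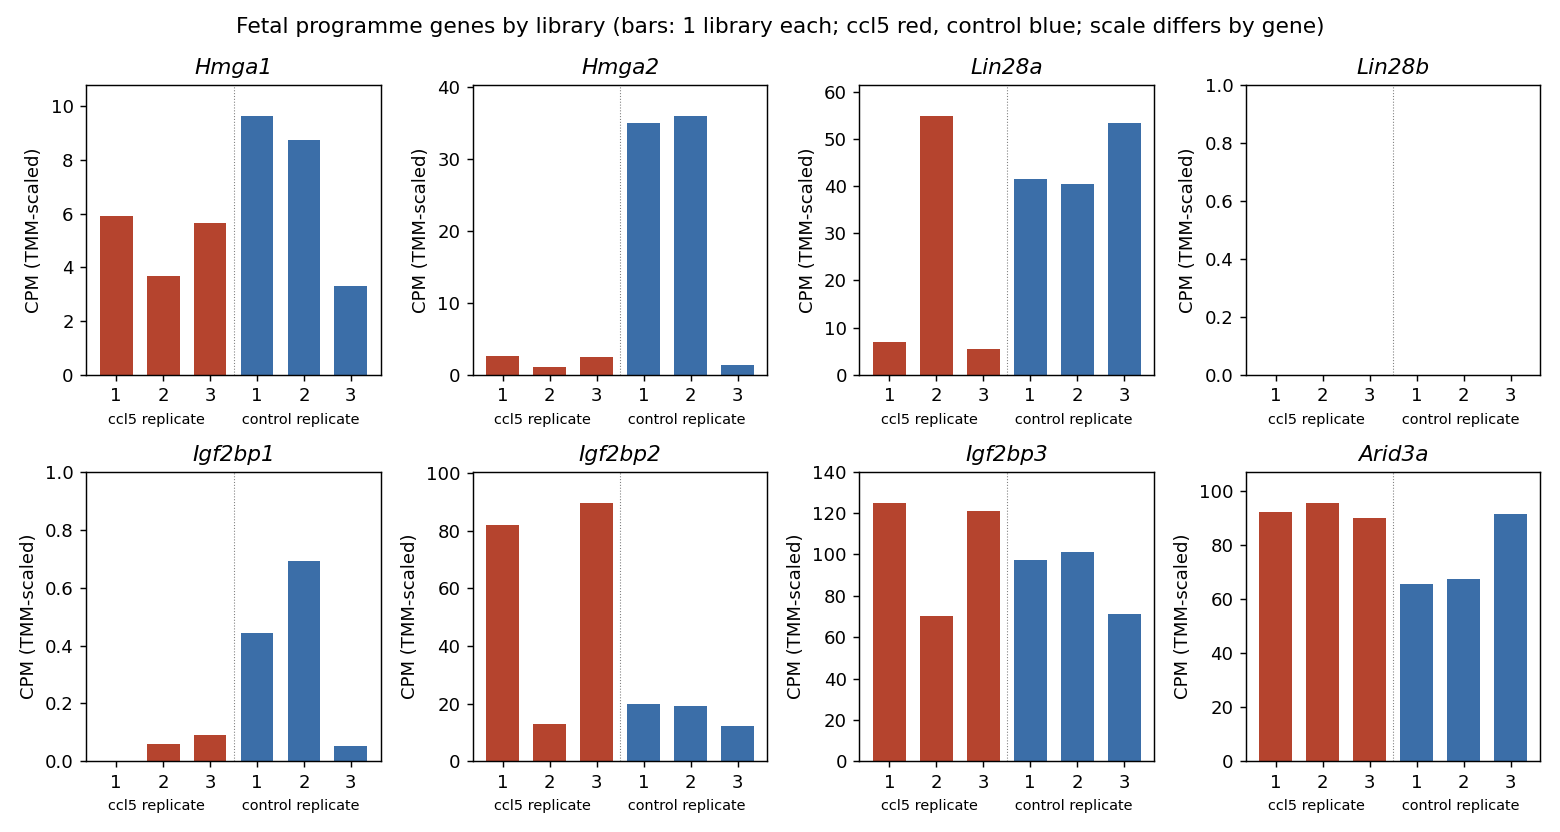
CPM (TMM-scaled) of each gene by library, 1 bar per library, ccl5 replicates 1 to 3 in red on the left and control replicates 1 to 3 in blue on the right of each panel; each panel has its own linear scale from 0. Hmga2 stands at 35.0 and 36.0 CPM in control replicates 1 and 2 and at or below 2.64 CPM elsewhere, Lin28a is low and Igf2bp2 high in ccl5 replicates 1 and 3, and the Lin28b panel is empty.

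Of the 8 genes, 6 passed the filter on low counts. By edgeR's quasi-likelihood test 0 of these 6 had an adjusted p under 0.05, as did 0% of the 12174 genes tested. At an unadjusted p under 0.05 there were 2 of the 6, Hmga2 and Igf2bp2, against 13.7% of all tested genes. DESeq2 called 1 of them, Hmga2, where it called 1.64% of the 12164 genes it tested. Among the 12174 genes tested by edgeR, DESeq2 called 169, and it gave Lin28a no adjusted p. In 0 of the 6 genes did the groups separate, against 15.8% of all tested genes. A range above 2 on the log2 scale over the 6 libraries was seen in 3 of the 6 (Hmga2, Lin28a and Igf2bp2), and in 21.7% of all tested genes.

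Hmga2 encodes an architectural chromatin protein of fetal stem cells (chromosome 10, 120361275 to 120476935, mm10, minus strand). It had read counts of 37, 18 and 27 across ccl5 replicates 1 to 3, against 552, 676 and 24 across control replicates 1 to 3. On the CPM scale the ccl5 libraries stood at 2.64, 1.10 and 2.46, and the control libraries at 35.0, 36.0 and 1.32. Control replicate 3 thus lay among the ccl5 libraries, and the groups overlapped. The span from the lowest to the highest library was 32.8-fold, the widest of the 8 genes where a fold could be formed. Its log2 fold change was -3.55 (SE 1.17, edgeR adjusted p = 0.365), and -3.53 by DESeq2 (adjusted p = 0.0407). The difference rested on control replicates 1 and 2, which also lack a transplant label, so their treatment and their source cannot be told apart. Among the stromal and endothelial markers, Kdr, an endothelial receptor, had the Hmga2 layout, with read counts of 2, 0 and 0 across the ccl5 libraries, against 49, 64 and 1 in controls. Cdh5, another endothelial marker, had 0, 1 and 1 counts with ccl5, against 10, 4 and 0 in controls. Other markers of that list did not share the layout. Vcam1 stood at 7.99 and 8.05 CPM in control replicates 1 and 2, and at 325 CPM in ccl5 replicate 2. Pecam1 stood at 82.0 and 94.1 CPM in those controls, and at 84.8 CPM in ccl5 replicate 2. The part of these markers in the Hmga2 result was not tested. Among the libraries labelled primary transplant the log2 fold change was 0.40 (edgeR adjusted p = 1, with a single control library). Without control replicate 3 it was -4.10 (adjusted p = 0.0358), in a fit that called 1.88% of the genes it tested.

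Hmga1, the second HMGA gene (chromosome 17, 27556574 to 27563672, plus strand), had a like layout in a smaller range. It had CPM values of 5.91, 3.66 and 5.64 across ccl5 replicates 1 to 3, against 9.64, 8.74 and 3.30 across control replicates 1 to 3. The ccl5 mean was 5.07 ± 1.23 CPM and the control mean 7.23 ± 3.43 CPM (SD, n = 3 each). The log2 fold change was -0.51 (SE 0.47, edgeR adjusted p = 0.635), and it was 0.48 among primary transplant libraries. The count of this gene may be understated by the counting, and no level per length is given for this gene.

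Igf2bp1, the IGF2BP with the most let-7 matches here (chromosome 11, 95957164 to 96005944, minus strand), did not pass the filter. It had read counts of 0, 1 and 1 across ccl5 replicates 1 to 3, against 7, 13 and 1 across control replicates 1 to 3. Only control replicates 1 and 2, the libraries with high Hmga2, exceeded the floor of 3 counts, at 0.444 and 0.693 CPM. No fold is given at these counts.

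Lin28a encodes the RNA-binding protein that blocks let-7 maturation together with a terminal uridylyltransferase (chromosome 4, 134003330 to 134018816, minus strand). It had read counts of 96, 899 and 59 across ccl5 replicates 1 to 3, against 654, 758 and 973 across control replicates 1 to 3. On the CPM scale the ccl5 libraries stood at 6.84, 54.9 and 5.37, and the control libraries at 41.5, 40.4 and 53.5. ccl5 replicate 2 was thus the highest library of all 6, while ccl5 replicates 1 and 3 were the lowest, and the span was 10.2-fold. The log2 fold change was -1.01 (SE 0.91, edgeR adjusted p = 0.627). Without ccl5 replicate 2 it was -2.88 (adjusted p = 0.00301), in a fit in which 26.2% of all tested genes were called. Lin28a was therefore present in 4 of the 6 libraries at 40.4 CPM or more, including both libraries with high Hmga2 and both libraries of the couple with the least Hmga2. Among markers of other cell types, the summed level of 11 stromal and endothelial genes ran from 31.2 to 414 CPM with ccl5 and from 95.4 to 430 CPM in controls. Vcam1 carried the top of this sum with a layout unlike that of Lin28a, at 2.07, 325 and 1.73 CPM across the ccl5 libraries, against 7.99, 8.05 and 339 CPM in controls. Pecam1 was low in the libraries with little Lin28a (34.1, 84.8 and 26.3 CPM across the ccl5 libraries, against 82.0, 94.1 and 87.7 CPM in controls), Col1a1 did not exceed 0.693 CPM, and their part in the Lin28a result was not tested.

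Igf2bp2, an RNA-binding protein that also persists in adult tissues (chromosome 16, 22059009 to 22163299, minus strand), was high where Lin28a was low. It had CPM values of 82.1, 13.1 and 89.7 across ccl5 replicates 1 to 3, against 20, 19.1 and 12.2 across control replicates 1 to 3. ccl5 replicates 1 and 3 stood at least 4-fold above every other library, and ccl5 replicate 2 lay inside the control range. The log2 fold change was 1.85 (SE 0.70, edgeR adjusted p = 0.365; DESeq2 adjusted p = 0.127). Without ccl5 replicate 2 it was 2.33 (edgeR adjusted p = 0.00506), in a fit that called 26.2% of the genes it tested. Among primary transplant libraries, with a single control library, it was 2.05, where ccl5 replicate 3 carried it. The platelet chemokine Pf4 was also highest in the libraries with high Igf2bp2, at 24.4, 5.25 and 23.0 CPM across the ccl5 libraries, against 0.317, 0.480 and 7.54 CPM in controls. The summed level of 6 megakaryocyte genes ran from 9.04 to 33.2 CPM with ccl5 and from 3.93 to 12.9 CPM in controls, and their part in the Igf2bp2 result was not tested.

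Igf2bp3, the family member best known from fetal tissue and leukemia (chromosome 6, 49085218 to 49214954, minus strand), was high in all libraries. It had CPM values of 125, 70.1 and 121 across ccl5 replicates 1 to 3, against 97.5, 101 and 71.1 across control replicates 1 to 3. The lowest libraries were again the couple of ccl5 replicate 2 and control replicate 3, and the whole span was 1.79-fold. The log2 fold change was 0.23 (SE 0.28, edgeR adjusted p = 0.724).

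Arid3a, an AT-rich interaction domain factor of fetal B cells (chromosome 10, 79927072 to 79955012, plus strand), varied least. It had CPM values of 92.4, 95.8 and 90.2 across ccl5 replicates 1 to 3, against 65.8, 67.4 and 91.6 across control replicates 1 to 3. Here control replicates 1 and 2, where Hmga2 was high, were the low libraries, and control replicate 3 overlapped the ccl5 range. The ccl5 mean was 92.8 ± 2.84 CPM and the control mean 75.0 ± 14.5 CPM (SD, n = 3 each), with a log2 fold change of 0.31 (SE 0.18, edgeR adjusted p = 0.458). Among primary transplant libraries the log2 fold change was 0.01.

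Per length, in RPKM (CPM divided by the gene's exon length in kilobases), the order of the genes differed between the couples of libraries. Igf2bp3 was the highest of the genes compared in ccl5 replicates 1 and 3, at 28.9 and 27.9, with Igf2bp2 next at 21.1 and 23.0. Arid3a led in ccl5 replicate 2, at 18.0, ahead of Igf2bp3 at 16.1 and Lin28a at 15.8, and these neighbours lay close together. In control replicates 1 and 2 Igf2bp3 led at 22.4 and 23.3, followed by Arid3a at 12.4 and 12.7 and Lin28a at 11.9 and 11.6, with Hmga2 at 8.38 and 8.63. Control replicate 3 had Arid3a at 17.2, Igf2bp3 at 16.3 and Lin28a at 15.4. Hmga2 thus ranked above Igf2bp2 in control replicates 1 and 2, where Igf2bp2 had 5.12 and 4.91, and stood below 1 in the other 4 libraries, from 0.263 to 0.631.

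**Figure D3:**
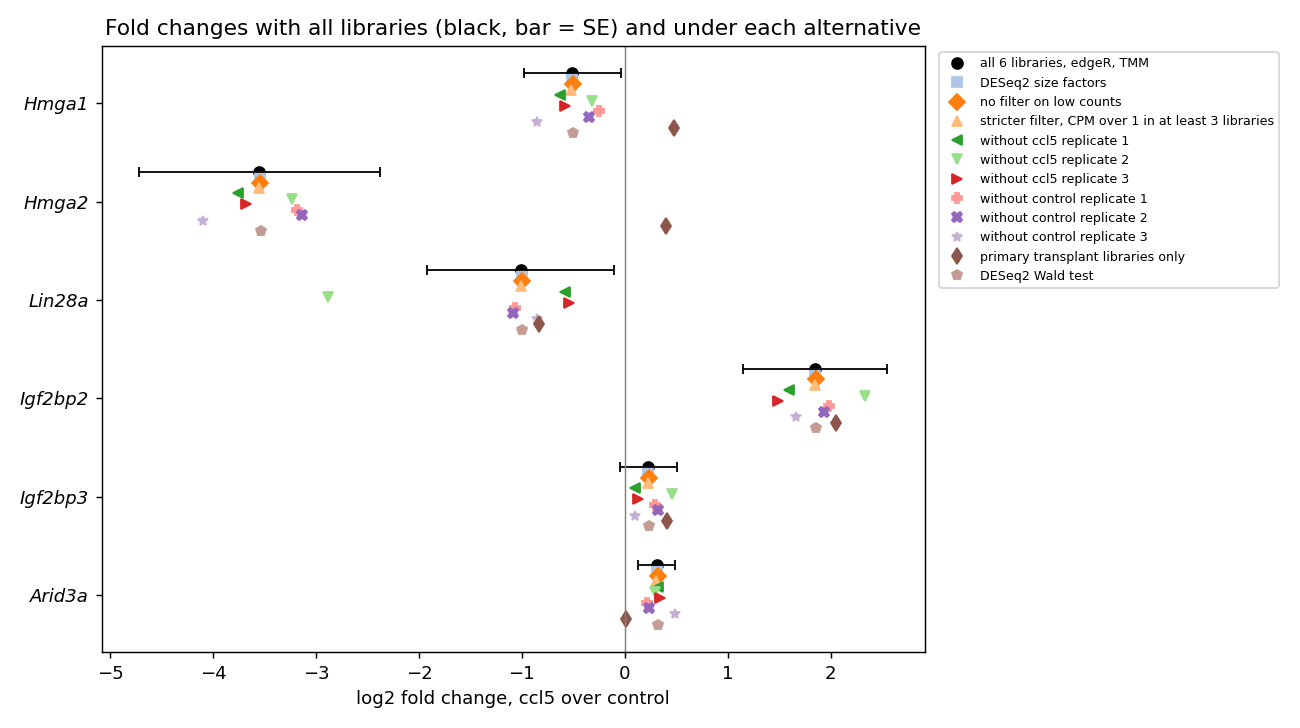
log2 fold change of ccl5 over control for the 6 tested genes, with all libraries in black (bar, SE of edgeR's fit) and each alternative fit as a coloured symbol on the rows below it. Hmga2 and Hmga1 change sign among primary transplant libraries (0.40 and 0.48), and Lin28a moves to -2.88 without ccl5 replicate 2.

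The genes whose levels followed each wide-ranging gene most closely were ranked by Pearson correlation of log2 CPM over the 6 libraries among 10050 tested genes. As the libraries form 3 couples, such correlations have few independent points, and 342 genes exceeded 0.95 for Hmga2, 892 for Lin28a and 1070 for Igf2bp2. The closest to Hmga2 were Cd14, the lipopolysaccharide co-receptor (r = 0.9996), Ckm, muscle creatine kinase, Mtrr, methionine synthase reductase, Arhgef7, a guanine nucleotide exchange factor, and Myl12a, a myosin light chain. Cd14 had CPM values of 31.3, 17.6 and 29.9 across ccl5 replicates 1 to 3, against 195, 188 and 18.4 across control replicates 1 to 3. Closest to Lin28a were Lrmp (r = 0.9994), Treml2, Tspan32, Ms4a3 and Prmt1, an arginine methyltransferase. Ms4a3, a gene of granulocyte and monocyte progenitors, had CPM values of 3.13, 139 and 2.09 across the ccl5 libraries, against 70.6, 83.7 and 120 across the control libraries. Closest to Igf2bp2 were Dr1 (r = 0.9998), Dram1, Trim25, Cpeb4 and Slc9a4. Cpeb4, another cytoplasmic RNA-binding protein, had CPM values of 139, 34.7 and 149 across the ccl5 libraries, against 46.9, 46.0 and 34.8 across the control libraries.

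**Figure D4:**
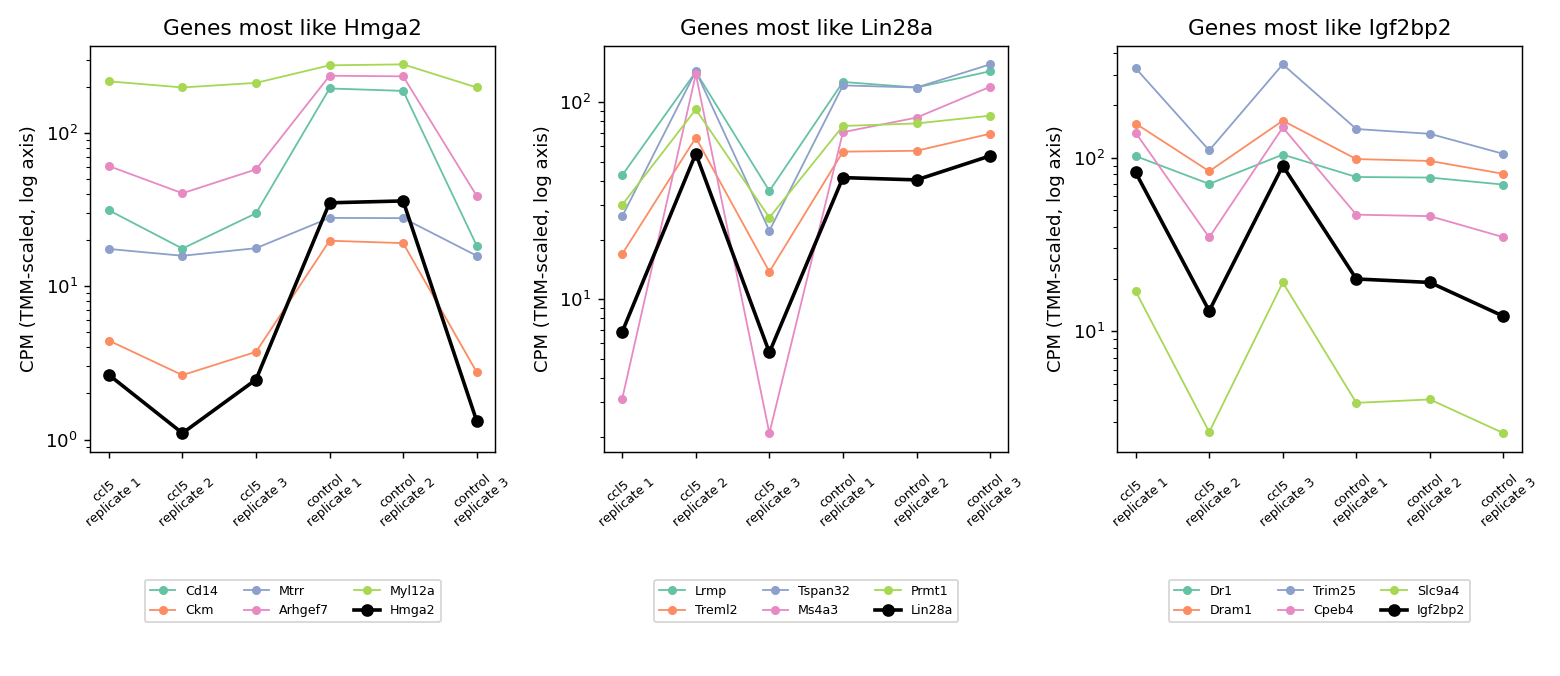
CPM on a log axis across ccl5 replicates 1 to 3 and control replicates 1 to 3 for Hmga2, Lin28a and Igf2bp2 (black) and the 5 genes most correlated with each (coloured); points are single libraries and lines join them only to show the layout. Control replicates 1 and 2 stand out for Cd14 (195 and 188) as for Hmga2, and ccl5 replicates 1 and 3 are low for Ms4a3 (3.13 and 2.09) as for Lin28a.

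Genes of let-7 and general microRNA maturation were measured alongside. Of 26 listed genes 25 were tested, 14 with a higher and 11 with a lower fold change, and a median log2 fold change of 0.08, against -0.01 over all tested genes. Calls numbered 0 by edgeR, 0 by DESeq2 and 1 at an unadjusted edgeR p under 0.05 (13.7% of all tested genes). The groups did not overlap in 4 that were higher with ccl5 (8.27% of all tested genes) and in 1 that was lower (7.49%). Eif2c2, the older symbol of the slicer Argonaute Ago2, had CPM values of 262, 85.1 and 270 across ccl5 replicates 1 to 3, against 66.2, 73.6 and 87.2 across control replicates 1 to 3 (log2 fold change 1.44, SE 0.45, edgeR adjusted p = 0.365). It thus followed the layout of Igf2bp2. Eif2c1 (Ago1), Dis3l2, the exonuclease that degrades uridylated let-7 precursors, and Khsrp, a protein that favours let-7 processing, had log2 fold changes of 0.33, 0.37 and 0.28 without overlap between the groups. The other non-overlapping members, named for that after their values were seen, were Dicer1 (0.21), which cuts microRNA precursors, and on the lower side Ddx5 (-0.19), a helicase of the Microprocessor complex. Zcchc11, the older symbol of Tut4, encodes the uridylyltransferase that works with LIN28A and was chosen after its values were seen. It had CPM values of 44.0, 3.97 and 42.9 across the ccl5 libraries, against 14.2, 14.2 and 4.68 across the control libraries, so it was highest in the 2 libraries with the least Lin28a. Zcchc6 (Tut7), its relative, lay between 120 and 127 CPM in all 6 libraries.

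The let-7 genes themselves had few reads, and reads from polyadenylated RNA at these loci come from longer transcripts and not from mature microRNA. Over 12 rows of the family read counts summed to 9, 17 and 10 across ccl5 replicates 1 to 3, against 10, 11 and 23 across control replicates 1 to 3. The neighbouring loci of let-7c-2 and let-7b on chromosome 15 (sequences above) together had read counts of 4, 14 and 5 across the ccl5 libraries, against 0, 0 and 17 across the control libraries. The 2 libraries at 0 were those with high Hmga2, but this pair of loci was chosen after its values were seen. Mirlet7d and Mirlet7i, other rows of the family, did not share this layout. Mirlet7d had read counts of 1, 3 and 4 across the ccl5 libraries, against 6, 6 and 4 across the control libraries. Mirlet7i had 2, 0 and 1, against 3, 3 and 1. No level is given at these counts.

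Described let-7 targets outside the 8 genes showed no common direction. Of 37 listed genes 30 were tested, 13 with a higher and 17 with a lower fold change, with a median log2 fold change of -0.09. Calls numbered 0 by edgeR and 2 by DESeq2 (Ccnd1 and Ccnd2, against 169 of all 12174 genes tested). At an unadjusted edgeR p under 0.05 there were 8 (13.7% of all genes). Without overlap 4 were higher (Irs2, Bach1, E2f2 and Dicer1, against 8.27% of all genes) and 3 lower (Tlr4, Cdk6 and Plag1, against 7.49%); apart from Irs2, Bach1 and Cdk6 these were named after their values were seen, and Dicer1 and Cdk6 stand in a second list too. The cell cycle genes Ccnd1 and Ccnd2, D-type cyclins, followed Hmga2. Ccnd1 had CPM values of 9.12, 1.89 and 5.46 across ccl5 replicates 1 to 3, against 277, 299 and 1.43 across control replicates 1 to 3 (log2 fold change -5.13, SE 1.74, edgeR adjusted p = 0.365; DESeq2 adjusted p = 0.0174). Ccnd2 had CPM values of 5.34, 1.04 and 4.19 across the ccl5 libraries, against 87.4, 91.1 and 1.38 across the control libraries. In control replicate 3 Ccnd2 lay within the ccl5 range and Ccnd1 just below it. Irs2, an insulin receptor substrate (log2 fold change 1.28, SE 0.39), and Bach1, a haem-sensing repressor (0.65, SE 0.22), stood above all control libraries in each of the ccl5 libraries, both with an edgeR adjusted p of 0.365. Bach1 came closest between ccl5 replicate 2 and control replicate 3, at 93.6 and 93.5 CPM. Myc, chosen after its values were seen, followed Lin28a at CPM values of 9.76, 67.0 and 5.10 across the ccl5 libraries, against 64.4, 64.8 and 53.3 across the control libraries.

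Described targets of IGF2BP proteins had 11 of 16 genes tested, 2 with a higher and 9 with a lower fold change, with a median log2 fold change of -0.35. That median was -0.15 without ccl5 replicate 2, -0.19 and -0.23 without control replicates 2 and 1, and -0.03 among primary transplant libraries. Calls numbered 0 by edgeR, 0 by DESeq2 and 0 at an unadjusted edgeR p under 0.05. Cdk6, a cyclin-dependent kinase, had CPM values of 135, 352 and 115 across ccl5 replicates 1 to 3, against 443, 469 and 379 across control replicates 1 to 3. It was the 1 of 11 without overlap, where 7.49% of all tested genes were lower without overlap, and lowest where Igf2bp2 was highest, with a log2 fold change of -1.10 (SE 0.46, edgeR adjusted p = 0.367). Srf and Actb had log2 fold changes of -0.53 and -0.35, with overlap.

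Fetal and imprinted growth genes were mostly at or near 0. Of 26 listed genes 10 were tested, 6 with a higher and 4 with a lower fold change and a median log2 fold change of 1.17. Calls numbered 0 by edgeR and 1 by DESeq2 (Igf1, against 169 of all 12174 genes tested). At an unadjusted edgeR p under 0.05 there were 3 (13.7% of all genes). Without overlap 1 was higher (Sox4, against 8.27% of all genes) and 1 lower (Mest, an imprinted gene named after its values were seen, log2 fold change -0.57, against 7.49%). Without a filter on low counts that median was 0.29 and among primary transplant libraries 0.41. Igf2, the growth factor whose messenger RNA gave the IGF2BP family its name, had at most 1 count in any library. Igf1, the related growth factor, had CPM values of 330, 36.2 and 362 across ccl5 replicates 1 to 3, against 21.8, 22.0 and 43.1 across control replicates 1 to 3 (log2 fold change 3.07, SE 0.87, edgeR adjusted p = 0.365; DESeq2 adjusted p = 0.0217). Igf1r, its receptor, had CPM values of 19.2, 67.1 and 12.9 under ccl5, against 113, 124 and 64.2 under control conditions, so that the libraries with the most Igf1 had the least Igf1r. Sox4, a progenitor transcription factor, had CPM values of 13, 3.97 and 8.01 across the ccl5 libraries, against 2.22, 2.19 and 3.19 across the control libraries, without overlap. Zbtb16, a zinc finger factor, had CPM values of 4.84, 0.855 and 4.64 under ccl5, against 0.0634, 0.160 and 0.990 under control conditions, of which the first 2 control values are at or under the floor. The 7 embryonic and adult globin genes in the table had 0 counts in all 6 libraries.

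Relatives of the 8 genes by family were 12 tested of 17 listed, 4 with a higher and 8 with a lower fold change, 0 without overlap and a median log2 fold change of -0.25. Both edgeR and DESeq2 called 0, and 2 had an unadjusted edgeR p under 0.05, against 13.7% of all genes. The median moved to -0.97 without ccl5 replicate 2, and it changed sign without control replicate 3 (0.18), ccl5 replicate 1 (0.04) or ccl5 replicate 3 (0.01). Arid3b, the closest relative of Arid3a, stayed between 13.3 and 22.9 CPM. Csda, an older symbol of the cold shock protein Ybx3, whose domain LIN28 proteins share, had CPM values of 133, 159 and 112 across ccl5 replicates 1 to 3, against 317, 310 and 137 across control replicates 1 to 3. It was highest in the libraries with high Hmga2. Cnbp, which has zinc knuckles like those of LIN28, had a log2 fold change of -0.48 (SE 0.22, edgeR adjusted p = 0.387), and Hmgn1, another chromatin-binding protein, of 1.07 (SE 0.38, adjusted p = 0.365).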

How the data were processed

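The deposited table holds raw read counts per gene for 6 libraries, made by the authors with featureCounts 1.5.1 on primary alignments with the UCSC mm10 annotation, per the file headers. The deposited gene length was used as an other value, for reads per kilobase. The submitters' processing notes also name Trimmomatic, Bowtie, TopHat and DESeq2, with no version. Reads were not assigned by strand, so antisense genes cannot be told apart, and by the counter's default a read overlapping 2 genes is left out. Groups came from the treatment labels and titles.

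Counts were scaled by TMM and filtered with filterByExpr (minimum count 10), so that 12174 genes were tested; 18580 of the 23337 had any count. Tests were edgeR 4.0.16 quasi-likelihood F tests (R 4.3.3), two-sided, ccl5 over control, Benjamini-Hochberg adjusted over all genes tested at 0.05, checked on simulated data. The simulated libraries were drawn independently, so that check does not cover the close couples of libraries seen here. Each SE was taken as |log2 fold change|/√F. Alternatives were DESeq2 1.42.0, its size factors, no filter or a stricter one, leaving out each library, primary transplant libraries alone and an adjusted p of 0.1. The 8 genes and the lists were chosen with earlier results of these data known. The rule named the 8 genes, the 5 genes most correlated with each one ranging over 2 on the log2 scale (mean log2 CPM of at least 1, prior count 2, predicted genes passed over) and the 4 members of each list with the smallest p. Among 185 list symbols, older names matched 7, and 5 had no row. Seed matches were counted in the longest 3' UTR per gene (GENCODE M21); chromosome 18 was not used here. Some items named by these rules are not reported here.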

Additional observations from a re-analysis of the deposited data

How the results depend on the processing

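Of 66 alternative values for the 6 tested genes, 59 kept direction and side of the threshold, and DESeq2 gave 1 (Lin28a) no adjusted p. Among primary transplant libraries, with 1 control, Hmga1 (0.48) and Hmga2 (0.40) changed sign. Calls appeared for Hmga2 by DESeq2 (log2 fold change -3.53). In fits leaving out 1 library, log2 fold changes ran from -4.10 to -3.14 for Hmga2, with a call without control replicate 3, from -2.88 to -0.54 for Lin28a and from 1.49 to 2.33 for Igf2bp2, both called without ccl5 replicate 2. They ran from -0.85 to -0.25 for Hmga1, 0.10 to 0.46 for Igf2bp3 and 0.22 to 0.49 for Arid3a. Calls over all genes ran from 0 to 3299 in these fits, with 3299 (26.2%) without ccl5 replicate 2 and 237 without control replicate 3. They numbered 199 by DESeq2, and at an adjusted p of 0.1 there were 0. List medians leaving out 1 library ran from 0.04 to 0.13 for microRNA maturation, -0.12 to 0.03 for let-7 targets, -0.46 to -0.15 for IGF2BP targets, 0.95 to 1.39 for fetal growth genes and -0.97 to 0.18 for relatives. Among primary transplant libraries they were 0.04 for microRNA maturation, 0.08 for let-7 targets (a change of sign), -0.03 for IGF2BP targets, -0.40 for relatives and 0.41 for fetal growth genes, the last 0.29 without a filter. The cause was not tested. The genes most like Lin28a and Igf2bp2 were the same 5 under each alternative, and for Hmga2 4 of 5 with DESeq2 size factors. No paired analysis was possible because the labels give the 2 groups no shared replicate numbers.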

Other observations

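Other rows near or related to Hmga2 and Lin28a were chosen after their values were seen. The antisense gene 9230105E05Rik lies within the span of Hmga2 without sharing exon bases. It had read counts of 17, 2 and 9 across ccl5 replicates 1 to 3, against 112, 151 and 3 across control replicates 1 to 3, the layout of Hmga2; without strand, unspliced Hmga2 reads and antisense reads cannot be told apart. Hmga2-ps1, a pseudogene row on chromosome 1, had CPM values of 8.19, 23.6 and 8.01 across the ccl5 libraries, against 12.7, 10.7 and 23.3 across the control libraries, so it did not follow Hmga2. Dhdds, which begins 2465 bases beyond the 3' end of Lin28a on the same strand, had CPM values of 52.0, 90.6 and 48.3 under ccl5, against 57.4, 57.9 and 85.4 under control conditions. Its span of 1.88-fold was narrower than the 10.2-fold span of Lin28a, with ccl5 replicates 1 and 3 again the lowest.

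Over all tested genes with a let-7 seed match in the 3' UTR, the 8 genes left out, 560 of 1085 were higher with ccl5 and 516 lower (the others had a log2 fold change of 0 at 2 decimals), with a median log2 fold change of 0.03. The groups did not overlap in 9.49% that were higher and 5.99% that were lower with ccl5. Among 9193 tested genes with a 3' UTR and no match the median was -0.01, with 8.45% and 7.45% without overlap. These shares are a description and were not tested.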
